A study of Homo sapiens with 25 samples.

Results

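Laminins and the integrins that bind them were followed here as 9 genes of HEC-1A, a line of epithelial cells from a human endometrial adenocarcinoma: the laminin chain genes LAMA3, LAMA5, LAMB1, LAMB3 and LAMC1, and the integrin chain genes ITGA3, ITGA6, ITGB1 and ITGB4. They were chosen by name and found by symbol among 60179 Ensembl identifiers of the RNA table. All 9 passed the filter on low values, a mean of at least 1 TPM over the libraries (TPM is a length-scaled share of all transcripts), with 13753 genes in all. RNA was measured in wild-type cells left untreated or exposed to 20 µM THC, a cannabinoid, for 24 h or 72 h, with 3 biological replicates per group. Open chromatin was mapped by ATAC-seq in the same 3 groups of 3. H3K4me3, a histone mark of active gene starts, was mapped by CUT&RUN in 3 untreated and 3 THC libraries, and the labels give no exposure time for the latter. All groups share 1 line and no vehicle is named for the untreated cells. What the replicates shared is not given beyond the word biological, so p-values measure the spread between these libraries.

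Laminins are secreted trimers of an α, a β and a γ chain that build the basement membrane beneath epithelia. LAMA3 and LAMB3 encode the α and β chains of a trimer that anchors epithelial cells and is known from wound edges and tumour margins, whereas LAMA5 pairs with LAMB1 or LAMB2 and LAMC1 in the basement membranes of many adult epithelia. Integrins are receptors of 1 α and 1 β chain: ITGA3 and ITGA6 pair with ITGB1, and ITGA6 also pairs with ITGB4, whose long cytoplasmic tail joins the hemidesmosome to keratin filaments.

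The RNA tables hold no counts, so the depth of each RNA library is unknown. The labelled epithelial identity was seen in the RNA: all 9 epithelial markers passed the filter. Their summed level was 3073 to 3213 TPM in untreated libraries, 5166 to 5376 TPM at 24 h and 3785 to 4029 TPM at 72 h. At 24 h 9 of 9 were called higher, beside 25.0% of all tested genes. With TPM rescaled without mitochondrially encoded genes 8 of 9 were, beside 3124 of 13815 tested genes, EPCAM losing its call. At 72 h 3 rose and 3 fell, where 40.1% of all tested genes rose and 33.0% fell. Of 10 fibroblast markers, 8 stayed below 1 TPM in every library, and their sum was 3.88 to 5.04 TPM without THC, 0.903 to 1.46 TPM at 24 h and 1.17 to 1.47 TPM at 72 h. All 8 endothelial markers stayed below 1 TPM in every library. The immune marker sum went from 1.44 to 1.97 TPM without THC to 130.0 to 139 TPM at 24 h and 32.4 to 42.7 TPM at 72 h, nearly all of it CD68, while the pan-leukocyte gene PTPRC was listed at 0 in 8 of 9 libraries. Their part in the results below was not tested. Between 38495 and 150884 ATAC peaks and between 30098 and 35879 H3K4me3 peaks were listed in a library.

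The laminin chains split with THC. LAMB3 and its partner LAMA3 rose at both times, LAMA5 and LAMC1 fell at both, and LAMB1 rose at 24 h and fell at 72 h. Among the 9 genes, 5 rose and 3 fell at 24 h, and 2 rose and 6 fell at 72 h (limma on log2(TPM + 1), adjusted p under 0.05). These counts stand against a broad response: 76.7% of all tested genes were called at 24 h (25.0% higher and 51.7% lower) and 73.1% at 72 h (40.1% higher and 33.0% lower). Groups of 3 that do not overlap were as common, with 78.6% of genes at 24 h and 76.6% at 72 h against untreated and 73.9% between the 2 times. The median log2 change of the 9 genes was 0.26 at 24 h and -0.42 at 72 h, beside -0.23 and 0.06 over all tested genes. When each library was centred on its median, which removes that shift, 6 of the 9 rose and 3 fell at 24 h, and the counts at 72 h stayed at 2 and 6. Over all genes that centring moved the share of rises among calls from 32.6% to 49.1% at 24 h. With it 4954 of 13753 tested genes rose and 5128 fell at 24 h, and 4790 rose and 5347 fell at 72 h.

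**Figure D1:**
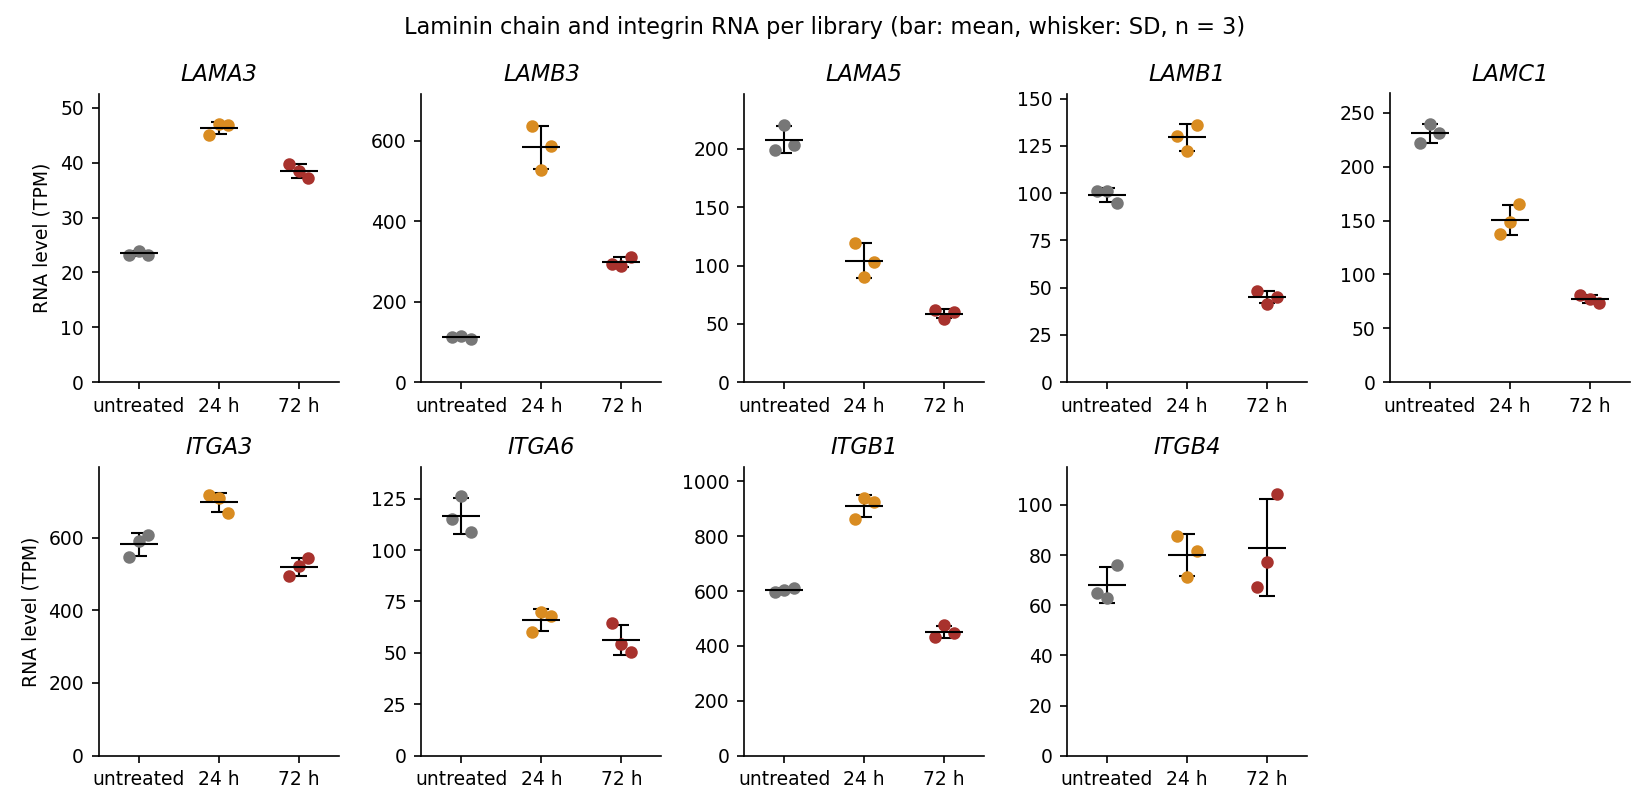
RNA level in TPM (linear axis from 0, scaled per panel) of the 9 genes in each of 9 libraries, 3 untreated, 3 after 24 h and 3 after 72 h of THC; points are libraries, bars the mean and whiskers the SD. LAMA3 and LAMB3 lie above their untreated points at both times, LAMA5, LAMC1 and ITGA6 lie below, and the ITGB4 groups overlap.

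LAMB3, the β chain of the LAMA3 trimer, showed the widest move of the 9 at 24 h. Its level was 112, 116 and 107 TPM in untreated libraries, 637, 529 and 586 TPM at 24 h and 294, 289 and 312 TPM at 72 h. The groups did not overlap, and the 24 h libraries were the highest. The mean rose from 112 ± 4.35 (SD, n = 3) to 584 ± 54.1 TPM, 5.23-fold, at 24 h (log2 change 2.37, SE 0.0652, limma adjusted p = 9.31e-10), and stood at 298 ± 12 TPM, 2.67-fold, at 72 h (1.41, adjusted p = 2.80e-08). LAMB3 spans chr1:209614870-209652425 on the minus strand (GRCh38).

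LAMA3, the α chain of the same trimer, was the lowest of the 9 in every group. Untreated libraries had 23.2, 24.0 and 23.2 TPM, 24 h libraries 45.0, 47.0 and 46.9 TPM, and 72 h libraries 39.8, 38.4 and 37.1 TPM. Every THC library was above every untreated one. The log2 change was 0.95 (SE 0.0454, limma adjusted p = 3.26e-08) at 24 h and 0.69 (adjusted p = 3.61e-07) at 72 h. LAMA3 spans chr18:23689453-23955066 on the plus strand.

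LAMA5, the α chain of the widespread epithelial trimers, went the other way. Untreated libraries had 199, 221 and 204 TPM, 24 h libraries 119.7, 90.3 and 103 TPM, and 72 h libraries 62.2, 54.3 and 59.7 TPM. The 3 groups formed descending steps without overlap. On the log2 scale the change was -1.0 (SE 0.0935, limma adjusted p = 4.26e-06) at 24 h and -1.81 (adjusted p = 6.18e-08) at 72 h, and the fall from 24 h to 72 h was itself called (-0.81, adjusted p = 2.72e-05). LAMA5 spans chr20:62309065-62367312 on the minus strand.

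LAMC1, the γ chain shared by most laminins, followed the same steps. Its level was 222, 239.9 and 231 TPM untreated, 138, 149 and 165 TPM at 24 h, and 80.7, 76.8 and 73.1 TPM at 72 h. No group overlapped another. LAMC1 changed by -0.62 (log2, SE 0.0660, limma adjusted p = 1.10e-05) at 24 h and -1.58 (adjusted p = 1.40e-08) at 72 h. LAMC1 spans chr1:183023420-183145592 on the plus strand.

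LAMB1, the β chain that can join LAMA5 and LAMC1, changed direction between the times. Untreated libraries had 101, 101 and 94.5 TPM, 24 h libraries 130.5, 122 and 136 TPM, and 72 h libraries 48.1, 41.6 and 45.2 TPM. All 24 h values lay above and all 72 h values below the untreated ones. The log2 change was 0.38 (SE 0.0619, limma adjusted p = 0.000229) at 24 h and -1.12 (adjusted p = 9.69e-08) at 72 h, a difference of -1.51 between the times (adjusted p = 4.88e-08). LAMB1 spans chr7:107923799-108003161 on the minus strand.

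Sequences before 4 laminin chain starts are shown: the LAMA3 and LAMB3 starts were chosen because they are the 2 of 11 entries that hold AP-1 letters, and LAMA5 and LAMC1 because they fell at both times. This choice was made after the matches were seen, and nothing about direction is read from it. Each is the 250 bases before a start in the RefSeq promoter table (GRCh38.p14), 5′ to 3′ on the gene's strand, at chr18:23872770-23873019 (LAMA3, an internal start), chr1:209651375-209651624 (LAMB3, the most downstream of 3 starts), chr20:62367313-62367562 (LAMA5) and chr1:183023170-183023419 (LAMC1). Capitals mark exact matches on either strand to the AP-1 letters TGANTCA, or to the Sp1 letters GGGCGG, which appear as CCGCCC when the match is on the opposite strand.
LAMA3: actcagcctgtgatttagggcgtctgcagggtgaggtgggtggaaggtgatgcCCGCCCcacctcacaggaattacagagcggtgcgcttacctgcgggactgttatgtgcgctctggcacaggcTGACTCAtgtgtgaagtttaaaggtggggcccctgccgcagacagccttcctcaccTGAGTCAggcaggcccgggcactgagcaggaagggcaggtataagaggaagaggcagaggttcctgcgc
LAMB3: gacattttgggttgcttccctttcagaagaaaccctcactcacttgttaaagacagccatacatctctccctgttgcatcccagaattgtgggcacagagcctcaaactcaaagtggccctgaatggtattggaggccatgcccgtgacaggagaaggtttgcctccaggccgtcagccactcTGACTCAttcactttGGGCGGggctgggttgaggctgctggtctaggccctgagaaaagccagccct
LAMA5: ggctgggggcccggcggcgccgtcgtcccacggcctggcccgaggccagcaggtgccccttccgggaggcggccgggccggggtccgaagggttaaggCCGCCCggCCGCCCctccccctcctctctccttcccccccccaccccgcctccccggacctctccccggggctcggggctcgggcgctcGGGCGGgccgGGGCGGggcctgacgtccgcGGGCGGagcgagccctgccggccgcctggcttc
LAMC1: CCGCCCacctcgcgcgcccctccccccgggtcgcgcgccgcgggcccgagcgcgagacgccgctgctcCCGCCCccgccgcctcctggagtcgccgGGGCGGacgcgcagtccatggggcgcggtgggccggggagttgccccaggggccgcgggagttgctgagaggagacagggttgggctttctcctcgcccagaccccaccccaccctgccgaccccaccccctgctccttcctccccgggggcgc

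AP-1 letters, the site of Jun and Fos proteins, occurred 2 times before the internal LAMA3 start (bases -125 to -119 and -69 to -63) and 1 time before the downstream LAMB3 start (-67 to -61). They occurred in none of the other 9 of the 11 entries for 7 members, and in 6.57% of 35116 promoters. The entries without them include the other 2 LAMB3 starts and those of LAMB1 and ITGB1, which also rose at 24 h. The LAMA3 matches lay in ATAC region chr18:23872725-23873126 and the LAMB3 match in chr1:209651309-209651513, each listed as a peak in 9 of 9 ATAC libraries, so the listing did not change with THC. RNA was summed per gene, so which start the LAMA3 and LAMB3 transcripts used was not measured. The LAMA3 gene start at chr18:23689453 has no entry in the promoter table, so no letters were searched there.

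Sp1 letters, common in GC-rich promoters, were in 42.64% of all promoters. They occurred 5 times before LAMA5, where 3 of the matches fell in an ATAC region listed in 3 of 3 untreated libraries, 1 of 3 at 24 h and 0 of 3 at 72 h, 3 times before LAMC1, whose region chr1:183022201-183024228 was listed in 9 of 9, and 1 time each in the LAMA3 and LAMB3 entries printed. Sp1 letters also occurred 4 times before LAMB1 and 3 times before an ITGA6 start, and before ITGB1 and the other LAMB3 starts. Nothing about direction is read from these numbers. The TEAD letters GGAATG were found in 1 of the 11 entries, before ITGB1 (11.89% of promoters). The letters searched for CRE (TGACGTCA, 1.65%), ATF4-CHOP (TGATGNAA, 3.14%) and NF-kB (1.73%) were found in none of the 11 entries. No match of one motif overlapped a match of another, and these are matches of letters only.

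In bulk RNA, a lower level per cell and a smaller share of cells with the RNA cannot be told apart, and this holds for each fall above. Since TPM is scaled by transcript length, chains could also be set against each other within a library.

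The ratio of LAMB3 to LAMB1 RNA rose from 1.13 without THC to 4.50 at 24 h and 6.65 at 72 h, differences of 2.00 and 2.56 in mean log2 ratio. LAMA3 to LAMA5 rose from 0.113 to 0.447 and 0.655, differences of 1.99 and 2.54. In both pairs the 3 groups did not overlap, and the exact permutation test gave p = 0.1, the smallest that 3 against 3 allows. Both ratios were thus higher at 72 h than at 24 h, although LAMA3 and LAMB3 themselves were lower at 72 h than at 24 h (-0.26, limma adjusted p = 0.000437, and -0.96, adjusted p = 7.33e-07).

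Between LAMA3 and LAMB3 the balance of RNA moved as well. Protein was not measured, so ratios of RNA do not give the chains in assembled trimers. LAMA3 stood at 0.210 of LAMB3 without THC, 0.0795 at 24 h and 0.129 at 72 h. Of LAMC1 and LAMB1, the ratio was 2.34 without THC, 1.16 at 24 h and 1.71 at 72 h. LAMA5 to LAMC1 was 0.898 untreated and 0.690 and 0.764 with THC. The 10 pairs compared were known partners or alternative chains of the same type, such as LAMB3 and LAMB1. Across all pairs the groups did not overlap in 10 of 10 at 24 h and in 10 of 10 at 72 h against untreated. Each had an exact permutation p of 0.1, also after adjustment over the 10 pairs. Between the THC times 7 of 10 did not overlap (exact permutation p = 0.1 each, adjusted 0.143). The pairs reuse the same 9 genes, of single genes 78.6%, 76.6% and 73.9% did not overlap in these comparisons, and other gene pairs were not examined, so nothing particular to these pairs is read from the counts.

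**Figure D2:**
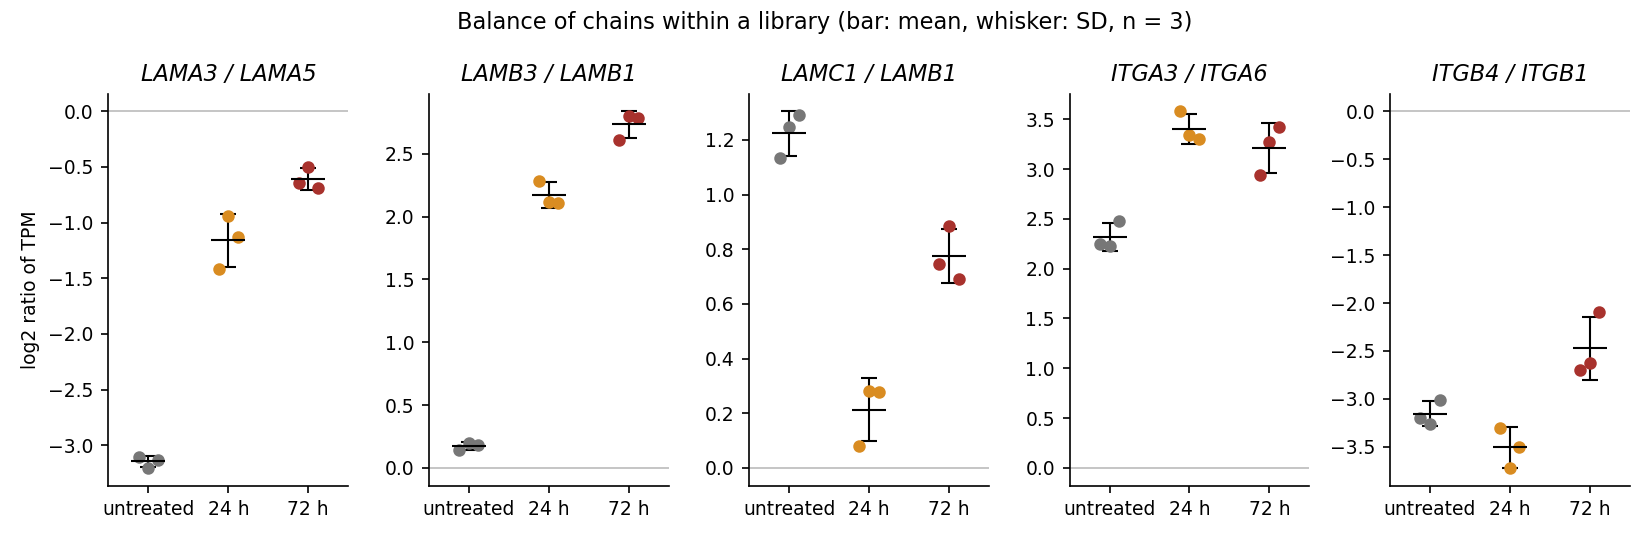
Log2 ratio of TPM between 2 chains within each library for 5 of the 10 pairs, by group; points are libraries, bars the mean, whiskers the SD (n = 3), and the grey line marks equal levels. LAMA3 to LAMA5 and LAMB3 to LAMB1 step up at 24 h and again at 72 h, LAMC1 to LAMB1 is lowest at 24 h, and ITGA3 to ITGA6 is higher at both times than without THC.

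Of the integrin chains, ITGA6 fell at both times, ITGB1 and ITGA3 rose at 24 h and were below untreated at 72 h, and ITGB4 did not pass the test at either time.

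ITGB1, the β chain of most laminin receptors, and ITGA3 were the highest of the 9 in each group. ITGB1 had 598, 603 and 613 TPM untreated, 863, 938 and 925 TPM at 24 h, and 434, 477 and 446 TPM at 72 h. The groups did not overlap. ITGB1 rose by 0.59 (log2, SE 0.0466, limma adjusted p = 1.25e-06) at 24 h and fell by 0.42 at 72 h (adjusted p = 1.72e-05).

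ITGA3, the α chain that binds LAMA3 and LAMA5 trimers, had 547, 591 and 608 TPM untreated, 718, 708 and 668 TPM at 24 h, and 494, 522 and 544 TPM at 72 h. The 72 h values all lay below the untreated ones, by as little as 544 against 547 TPM. The log2 change was 0.26 (SE 0.0530, limma adjusted p = 0.00109) at 24 h and -0.16 (adjusted p = 0.0185) at 72 h. The 72 h call was lost without untreated replicate 2 (-0.15, limma adjusted p = 0.0564), without untreated replicate 3 (-0.13, adjusted p = 0.0728) and without 72 h replicate 1 (-0.13, adjusted p = 0.0676).

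ITGA6, which pairs with either β chain, had 115, 126 and 109 TPM untreated, 59.99, 69.9 and 67.8 TPM at 24 h, and 64.4, 54.1 and 50.6 TPM at 72 h. All THC values were below all untreated values, and the 2 THC groups overlapped. The log2 change was -0.82 (SE 0.0935, limma adjusted p = 1.88e-05) at 24 h and -1.04 (adjusted p = 3.41e-06) at 72 h. The step from 24 h to 72 h was -0.23 with a limma adjusted p of 0.0502.

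ITGB4, the hemidesmosomal chain, had 65.0, 63.0 and 76.2 TPM untreated, 87.7, 71.2 and 81.6 TPM at 24 h, and 67.1, 77.3 and 104 TPM at 72 h. The groups overlapped, and the 72 h libraries spread the widest. The log2 change was 0.23 (SE 0.145, limma adjusted p = 0.167) at 24 h and 0.26 (adjusted p = 0.128) at 72 h. With each library centred on its median ITGB4 was called at 24 h (0.45, limma adjusted p = 0.0235), and without 72 h replicate 1 it was called at 72 h (0.40, adjusted p = 0.0246).

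The RNA of the receptor chains therefore changed in its proportions. ITGA3 RNA was 4.99 times that of ITGA6 without THC, 10.6 times at 24 h and 9.26 times at 72 h. ITGA6 to ITGB4 went from 1.72 to 0.823 and 0.688, so that ITGB4 was above ITGA6 in the THC means. Both pairs separated from untreated at both times (exact permutation p = 0.1) and neither separated between 24 h and 72 h (exact permutation p = 0.4 and 0.6). The ITGA6 to ITGB1 ratio was 0.193 without THC, 0.0724 at 24 h and 0.124 at 72 h. ITGB4 to ITGB1 was 0.112, 0.0880 and 0.180, and ITGA3 to ITGB1 was 0.961, 0.768 and 1.15, each lower than untreated at 24 h and higher at 72 h.

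Ranked by TPM, the 9 genes without THC ran from ITGB1 and ITGA3, whose libraries overlapped, through LAMC1, LAMA5, ITGA6 and LAMB3 (these 2 overlapped), LAMB1 and ITGB4 to LAMA3. At 24 h the order was ITGB1, ITGA3, LAMB3, LAMC1, LAMB1, LAMA5, ITGB4, ITGA6 and LAMA3, with no overlap between neighbours. At 72 h it was ITGA3, ITGB1, LAMB3, ITGB4, LAMC1, LAMA5, ITGA6, LAMB1 and LAMA3, with overlap between ITGB4 and LAMC1 and between LAMA5 and ITGA6. LAMB3 was thus the highest laminin chain of the 9 in both THC groups, and LAMC1 without THC.

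**Figure D3:**
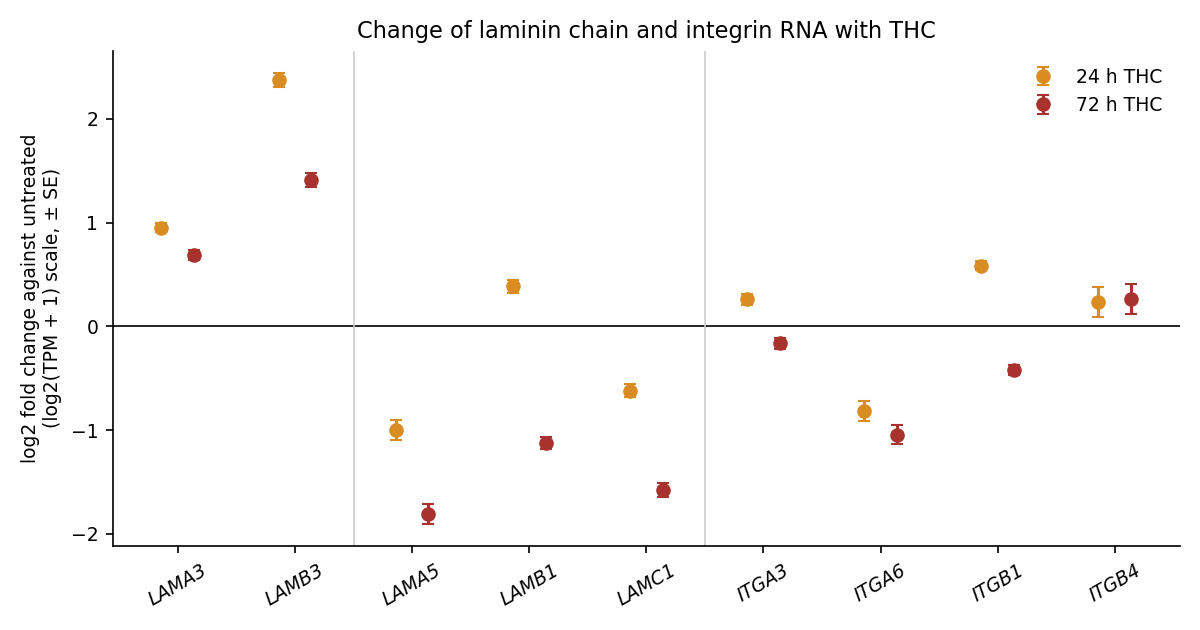
Log2 fold change against untreated (log2(TPM + 1) scale, points with SE from limma) at 24 h and 72 h for the 9 genes, ordered as LAMA3 and LAMB3, the LAMA5 type chains and the integrin chains. LAMB3 reaches 2.37 at 24 h, LAMA5 reaches -1.81 at 72 h, and LAMB1, ITGA3 and ITGB1 lie above 0 at 24 h and below it at 72 h.

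Set directly against 24 h, the 72 h libraries had 7 of the 9 genes lower and 0 higher, where 17.8% of all tested genes were lower and 54.9% higher (72.6% called). The median of the 9 was -0.81 and that of all tested genes 0.26. The genes not called were ITGA6 and ITGB4 (0.03, limma adjusted p = 0.870). With libraries centred on their medians 8 were lower, ITGA6 joining them, where 5217 of 13753 tested genes were lower and 4176 higher.

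By a distance over the 9 libraries (Euclidean, on log2(TPM + 1) centred per gene, 10610 candidate genes), the nearest genes were named. For LAMB3 the nearest was PLEKHM1 (distance 0.210). For LAMA5 the nearest 2 were TINAGL1 (0.294), a basement membrane protein, and NRM (0.344). For LAMA3 they were HPS4 (0.135) and ACVR1 (0.143), for LAMB1 PROCR (0.213) and RBMS3 (0.277), and for LAMC1 HSPA4L (0.265) and PAICS (0.286). For the integrins they were CCDC6 (0.124) and CELF1 (0.146) for ITGA3, FH (0.242) and RDH11 (0.259) for ITGA6, MICA (0.113) and DDX47 (0.197) for ITGB1, and PTMS (0.262) and BCL3 (0.291) for ITGB4.

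Of 6 other laminin chains examined, 3 passed the filter, 1 rose and 0 fell at 24 h, and 3 rose at 72 h; with centred libraries all 3 rose at 24 h. Over all tested genes 25.0% rose at 24 h and 40.1% at 72 h, and with centred libraries 4954 of 13753 rose at 24 h. LAMA1, an embryonic α chain, went from 0.684 ± 0.0252 TPM to 7.02 ± 0.509 at 24 h and 9.91 ± 0.578 at 72 h (n = 3). Its untreated level is below 1 TPM, so it passed the filter only through the THC libraries, where it had to be higher. LAMA1 is the 1 gene counted at 24 h, and it is among the 3 counted at 72 h and with centred libraries. Its levels are given as a description with no test. LAMB2, the alternative β chain for LAMA5 trimers, was 167 TPM without THC, 169 TPM at 24 h (0.02, limma adjusted p = 0.764) and 219 TPM at 72 h (0.38, adjusted p = 0.000104). LAMA2 changed by 0.12 (adjusted p = 0.167) and 0.42 (adjusted p = 0.000402). The list's median, LAMA1 included, was 0.12 at 24 h and 0.42 at 72 h.

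In the list of other laminin-binding receptors 8 of 9 genes passed the filter, with 3 higher and 5 lower at 24 h and 4 and 4 at 72 h. The medians were -0.39 and 0.11. Of all tested genes 25.0% were higher and 51.7% lower at 24 h, and 40.1% and 33.0% at 72 h. With centred libraries 3 of the list were higher and 4 lower at 24 h, beside 4954 and 5128 of 13753 tested genes. The counts include CD151 and CD47, which are not themselves laminin receptors. The syndecan SDC4 rose from 103 ± 4.58 to 401 ± 1.81 TPM at 24 h and 257 ± 7.32 TPM at 72 h (log2 1.95 and 1.31), whereas SDC1 fell from 36.1 to 12.2 and 9.96 TPM (-1.50 and -1.76). DAG1, dystroglycan, fell from 117 ± 2.52 to 36.6 ± 1.09 TPM at 24 h and 58.6 ± 3.26 TPM at 72 h (-1.65 and -0.99). ITGA2, the α chain of a collagen and laminin receptor, rose from 8.28 to 25.7 and 13.9 TPM (1.52 and 0.68). BCAM, a receptor for the LAMA5 chain, fell from 93.9 to 43.3 and 20.8 TPM (-1.11 and -2.13). CD151, the tetraspanin bound to ITGA3 and ITGA6, rose by 0.55 at 24 h and fell by 0.20 at 72 h. All changes in this paragraph had limma adjusted p-values under 0.05, as had those given without a p for the lists that follow.

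Of 18 other integrin chains 8 passed the filter, with 1 higher and 6 lower at 24 h and 1 higher and 7 lower at 72 h, where 51.7% and 33.0% of all tested genes were lower. The medians were -1.30 and -0.98, beside -0.23 and 0.06 over all tested genes. The 1 counted as higher was ITGAX, at 0.525, 12.9 and 8.16 TPM, which passed the filter only through the THC libraries, where it had to be higher. The falls were led by ITGB3, a vitronectin receptor chain, from 139.7 ± 6.58 to 38.1 ± 0.622 and 23.1 ± 0.660 TPM (-1.84 and -2.54), ITGB8 (-1.47 and -2.61) and ITGB6 (-1.41 and -2.04). ITGAV, the α chain that all 3 share, fell by 1.34 and 1.15. ITGA5, the fibronectin receptor α chain, was at 33.5, 34.3 and 25.3 TPM (0.03, limma adjusted p = 0.551, and -0.39, adjusted p = 3.76e-05), and with centred libraries it was called higher at 24 h (0.25).

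Among hemidesmosome genes other than the members, 6 of 9 passed the filter, with 4 higher and 2 lower at 24 h and 2 higher and 2 lower at 72 h; the medians were 0.42 and 0.02. The shares over all tested genes were 25.0% higher and 51.7% lower at 24 h and 40.1% and 33.0% at 72 h. With centred libraries 4 of the list were higher and 1 lower at 24 h, beside 4954 and 5128 of 13753 tested genes. PLEC, plectin, which links ITGB4 to keratin, rose from 44.5 to 75.1 and 82.1 TPM (log2 0.74 and 0.87), and KRT18 rose by 0.84 and 0.93. DST, whose epithelial isoform is a hemidesmosome plaque protein, fell from 12.4 to 8.46 and 4.49 TPM (-0.50 and -1.28). CD151, counted among the receptors too, and the keratins KRT8 and KRT18, counted among the epithelial markers too, belong to this list. COL17A1, KRT5 and KRT14, typical of stratified epithelia, did not pass the filter.

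Of 19 basement membrane partners of laminin 14 passed, 1 rose and 9 fell at 24 h, and 3 rose and 9 fell at 72 h. With centred libraries 4 rose and 6 fell at 24 h, beside 4954 and 5128 of 13753 tested genes. The medians were -0.28 and -0.65, and of all tested genes 51.7% fell at 24 h and 33.0% at 72 h. The collagen IV chains COL4A1 and COL4A2 fell by 0.86 and 0.70 at 24 h and by 1.98 and 1.54 at 72 h, COL4A1 from 41.4 ± 4.00 to 9.70 ± 1.02 TPM. TINAGL1 fell from 204 to 105 and 65.6 TPM (log2 -0.96 and -1.62). HSPG2, perlecan, changed by -0.25 and -1.17, and the 24 h call was lost with centred libraries (-0.04, limma adjusted p = 0.757). COL7A1, the anchoring fibril collagen that binds the LAMA3 trimer, fell by 0.77 at 24 h and rose by 0.89 at 72 h.

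In the cytoplasmic adhesion complex of integrins 28 of 30 genes passed, with 8 higher and 14 lower at 24 h and 8 higher and 15 lower at 72 h. Over all tested genes 25.0% were higher and 51.7% lower at 24 h, near the shares of this list, and 40.1% and 33.0% at 72 h. The list's medians were -0.16 and -0.20. With centred libraries the counts were 12 and 12 at 24 h and 5 and 17 at 72 h. Of 13753 tested genes 4954 were then higher and 5128 lower at 24 h, and 4790 and 5347 at 72 h. KANK2 fell from 63.2 to 8.16 and 20.1 TPM (log2 -2.81 and -1.61), and TNS3 changed by -1.28 at 24 h. TNS1, at 3.83, 0.868 and 0.885 TPM, passed the filter only through the untreated libraries, where it had to be higher. PXN, paxillin, rose from 161 to 389 TPM at 24 h (1.27). ACTN4 and VCL, actin-linked proteins of the complex, fell by 1.28 and 1.26 at 72 h. TLN1, the talin that activates integrins, gave -0.13 (limma adjusted p = 0.0762) and -0.04 (adjusted p = 0.608), and PTK2, focal adhesion kinase, gave -0.07 (adjusted p = 0.332) and -0.37 (adjusted p = 0.000285). The 24 h values of both depended on scaling: centred libraries gave PTK2 a positive change (0.15, adjusted p = 0.0199), and TPM rescaled without mitochondrially encoded genes gave TLN1 a called fall (-0.19, adjusted p = 0.0136).

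**Figure D4:**
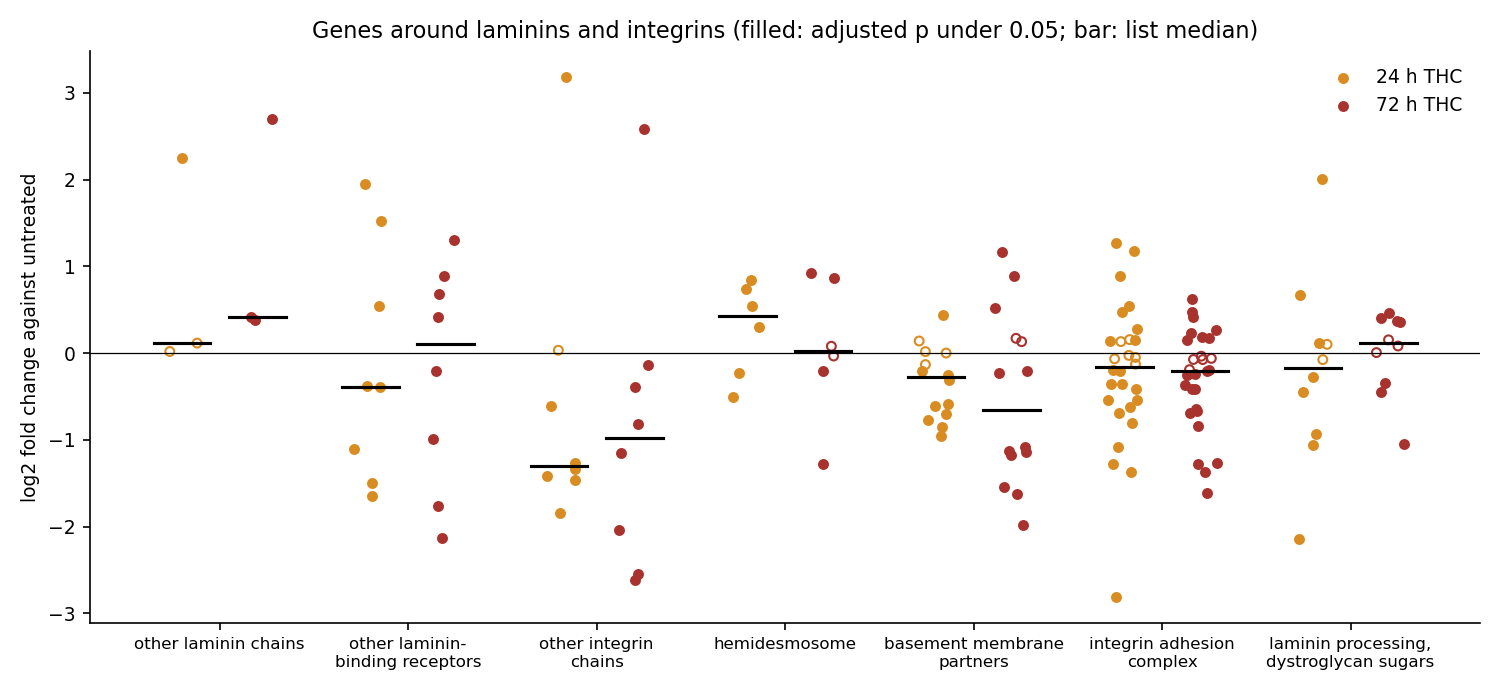
Log2 fold change against untreated (y axis) of the tested genes of 7 lists around laminins and integrins at 24 h and 72 h; filled points have a limma adjusted p under 0.05, open points do not, and black bars are list medians. The other integrin chains have medians of -1.30 and -0.98, with ITGAX, which passed the filter only through the THC libraries, far above them. The other laminin chains lie at or above 0, and of these LAMA1 also passed the filter only through the THC libraries.

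Gene starts were then examined for peaks, using a window of 1000 bases either side. All 9 genes had an H3K4me3 peak at the start in 6 of 6 libraries, which 63.2% of 17843 genes had in all 3 untreated and 63.7% in all 3 THC libraries. For ITGA3 and ITGB4 the start was itself taken as the end with H3K4me3 in more libraries. A marked start and an unmarked end were thus favoured by that choice for both genes. The same holds for all genes without a strand in the promoter table, which the H3K4me3 shares include. ATAC peaks at the start were listed in 3 of 3 untreated libraries for all 9 (64.6% of all genes). At 24 h they were listed in 3 of 3 for all but LAMA5, with 2, and at 72 h for all but LAMB1, with 2, and LAMA5, with 1 (60.7% and 51.4% of all genes had 3 of 3). None of the 9 gained a start peak (0 of 3 to 3 of 3) or lost one (the reverse). Over all genes 0.0112% gained and 0.549% lost an ATAC start peak at 24 h, 0.0168% and 0.863% at 72 h, and 0.0953% gained and 0.0336% lost an H3K4me3 start peak. At gene ends the members had an ATAC peak in at most 1 library per group and no H3K4me3 peak, where 7.96%, 6.25% and 4.14% of all genes had an ATAC peak in 3 of 3 untreated, 24 h and 72 h libraries, and 8.94% and 8.90% an H3K4me3 peak in 3 of 3 untreated and THC libraries. A peak missing from a list is not a measured absence of signal, since the lists hold called peaks only and their lengths differ.

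LAMA5, which fell the most at 72 h, was the gene whose start peak was listed least often. LAMC1 and ITGA6, whose RNA also fell at both times, had a start peak in 3 of 3 libraries of each group. A link between RNA and these listings was not tested. The LAMA5 ATAC region chr20:62367273-62367394, which contains the start, was listed in 3 of 3 libraries without THC, 1 of 3 at 24 h and 0 of 3 at 72 h. Another region inside the gene, chr20:62321302-62321925, had the same counts, and chr20:62366485-62366620 went from 3 of 3 to 0 of 3 at 24 h and 1 of 3 at 72 h. The nearby region chr20:62365842-62366145 was listed in 3 of 3 libraries untreated, 3 of 3 at 24 h and 2 of 3 at 72 h. Within 2500 bases either side of the start, ATAC peaks covered a mean of 777 bases untreated, 595 at 24 h and 785 at 72 h. These groups overlapped. H3K4me3 peaks covered the whole window of 2500 bases either side of the LAMA5 start, 5001 bases, in 6 of 6 libraries, within a merged domain at chr20:62360738-62371289.

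At LAMB3, H3K4me3 peaks covered 4044, 3802 and 4197 bases of that window in untreated and 4275, 4693 and 4351 bases in THC libraries. At LAMA3 they covered 1864, 1902 and 1614 bases untreated and 1919, 1911 and 2343 with THC. Neither pair of groups overlapped (exact permutation p = 0.1, the smallest possible), and 8.72% of 12344 covered starts were longer with THC in this way and 3.27% shorter. At the further starts of these genes in the promoter table the groups did overlap: at the internal LAMA3 start peaks covered 913, 2262 and 1005 bases untreated and 1676, 2373 and 1830 with THC (exact permutation p = 0.3), and at the downstream LAMB3 start 2993, 3622 and 4124 against 3995, 4516 and 4420 (exact permutation p = 0.2). The middle LAMB3 start overlapped as well (exact permutation p = 0.2). The other 7 genes overlapped between the groups, ITGA3 being covered in full in all 6. ATAC coverage overlapped between untreated and either THC group at all 9 starts, where 0.373% of 15568 starts were longer and 5.81% shorter without overlap at 24 h, and 1.27% and 8.18% at 72 h.

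**Figure D5:**
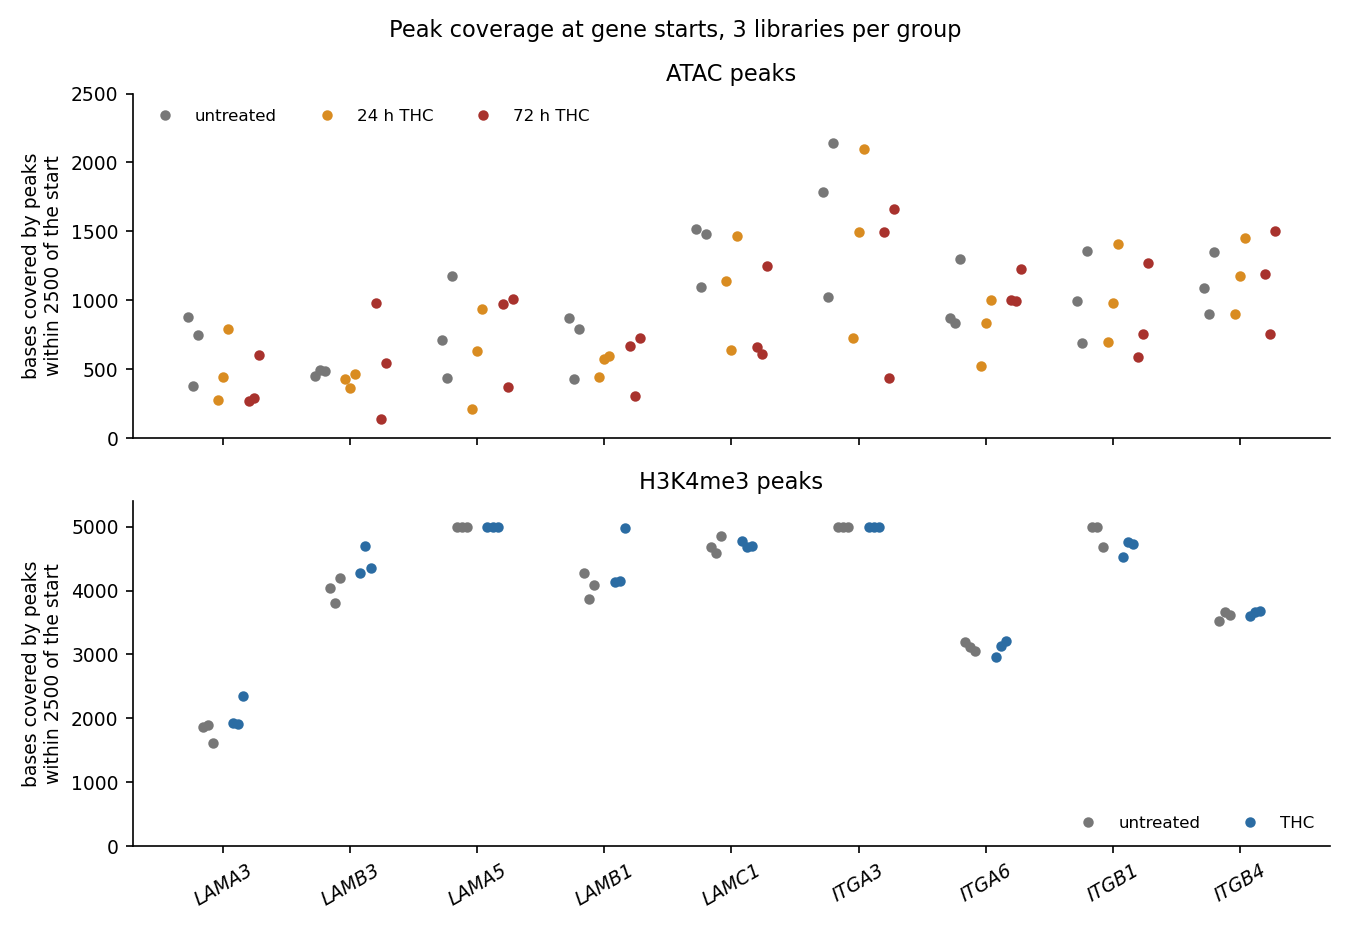
Bases covered by ATAC peaks (upper panel) and H3K4me3 peaks (lower panel) within 2500 bases either side of the gene start, per library, for the 9 genes; both axes start at 0 and each point is 1 library. The ATAC points with THC overlap the untreated points at each of the 9 genes, and the H3K4me3 groups are separate at the gene starts of LAMA3 and LAMB3, with the THC points higher.

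Across the 9 genes, from 1000 bases before the start to the end, 125 merged ATAC regions were listed, 19 of them in all 9 libraries and 59 in a single library. None was gained, 1 was lost at 24 h and 3 at 72 h, beside 0.692% and 1.27% lost, and 0.0806% and 0.0935% gained, of 239554 regions genome-wide. Besides the LAMA5 regions, the loss at 72 h was ITGB4 chr17:75747926-75748115, listed in 3, 2 and 0 libraries. Of 44 H3K4me3 regions 21 were in all 6 libraries, 0 were lost and 1 was gained, ITGA3 chr17:50066878-50067901 (0 of 3 untreated, 3 of 3 THC; 0.642% of 47473 regions were gained and 0.388% lost).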

How the data were processed

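RNA levels were TPM values from 1 table of 9 libraries, deposited by the authors and with equal totals in each library. Peak lists were deposited per library for ATAC-seq (9) and H3K4me3 CUT&RUN (6), and 24 of 25 samples had a file. Each peak carries the authors' fold enrichment ratio, −log10 p and q values and a score, as deposited. The submitters' processing notes name Bowtie2, MACS2 2.2.7.1, MACS3, Salmon and Trim Galore among others, with build GRCh38 and no roles. The sources used here do not give how reads were shifted, deduplicated or controlled. Because called peaks depend on depth, lists of unequal length can differ without a change in signal.

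The 9 genes, the other lists and the tests were chosen with earlier results of these data known. Identifiers were matched to symbols for 59918 of 60179. Log2(TPM + 1) was fitted with limma 3.58.1 (R 4.3.3; 3 groups of 3 in 1 fit, trend, Benjamini-Hochberg over the 13753 genes with mean TPM of at least 1; call at adjusted p under 0.05). Fold changes on this scale understate changes of low genes. Pair ratios and covered bases had exact two-sided permutation tests. Peaks were counted within 1000 bases of gene ends; strand came from the promoter table for 15812 of 17843 genes and otherwise from the H3K4me3-marked end, ITGA3 and ITGB4 included. From each list, up to 4 called genes with the largest change per comparison were named, and a fixed few beside them; a few items of these lists are not reported here. Alternatives were the pseudocount (0.1), the filter (none, or a mean of 5 TPM), centring or rescaling, the groups fitted, a replicate block, single libraries left out, the peak window (500), a stricter q and a minimum overlap of 100 bases. The limma script was tested on simulated data. Python 3.11.15, pandas 2.3.3 and numpy 2.4.6 were used. The table gives no counts, so RNA depth is unknown.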

Additional observations from a re-analysis of the deposited data

Results flagged for a closer look

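For 7 of the 9 genes the change against untreated at 72 h differed from that at 24 h in the limma test of 72 h against 24 h (adjusted p under 0.05). Both changes share the same untreated libraries. The difference (72 h change minus 24 h change, log2) was -0.26 for LAMA3, -0.81 for LAMA5, -1.51 for LAMB1, -0.96 for LAMB3, -0.96 for LAMC1, -0.42 for ITGA3 and -1.0 for ITGB1. LAMB1, ITGA3 and ITGB1 were higher than untreated at 24 h and lower at 72 h in every library, while LAMA3 and LAMB3 stayed above untreated and LAMA5 and LAMC1 fell further. Over all tested genes 72.6% differed between the times.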

How the results depend on the processing

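Of the single-gene values recomputed under the alternatives, 337 kept direction and side of the threshold, 7 became called, 3 lost the call and 4 changed sign. The sign changes were all ITGB4 at 72 h against 24 h, whose value of 0.03 was not called: it was -0.28 with centred libraries, -0.0016 with TPM rescaled without mitochondrially encoded genes, and -0.15 to 0.17 when single libraries were left out. ITGA6 at 72 h against 24 h became called under 5 alternatives, with limma adjusted p from 0.000403 (centred) to 0.0422 (mean TPM of at least 5). The 3 lost calls were all ITGA3 at 72 h. All 240 recomputed pair ratios kept their direction.

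No member lost its ATAC start peak as counted, where 98 of 17843 genes did at 24 h and 154 at 72 h. With a −log10 q of at least 5, 1 member did at 24 h (LAMB1), where 68 genes did. At 72 h 1 member did with that q (LAMB1), where 264 genes did. With a window of 500 bases 1 member did at 72 h (LAMA5), where 141 genes did. Without 72 h replicate 3, 1 member did (LAMA5), where 684 genes did. The range over libraries left out was 0 to 1 member.

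Same-numbered libraries did not deviate together (correlations of -0.199 to 0.252), so the numbers were not taken as a pairing. With a replicate block 3447 genes rose and 7130 fell at 24 h, 5519 and 4558 at 72 h, and 7566 and 2466 at 72 h against 24 h, beside 3433 and 7111, 5514 and 4542, and 7546 and 2445 without it, and no call of the 9 genes changed. The unknown RNA depth and the use of called peaks limit what small changes could be seen.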

Other observations

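Genes that process laminins or build the sugar by which dystroglycan binds them were listed separately. Of 13 genes 10 passed the filter on low values, 3 rose and 5 fell at 24 h, and 4 rose and 3 fell at 72 h, with median log2 changes of -0.18 and 0.12 (limma adjusted p under 0.05 for each call). These counts are near the shares over all tested genes, 25.0% higher and 51.7% lower at 24 h and 40.1% and 33.0% at 72 h. With centred libraries 4 rose and 4 fell at 24 h, beside 4954 and 5128 of 13753 tested genes. PLAU, the urokinase plasminogen activator, rose from 191 ± 3.94 to 769 ± 2.62 TPM (SD, n = 3) at 24 h, a log2 change of 2.01, and stood at 202 ± 3.54 TPM at 72 h (0.08, limma adjusted p = 0.0506). B4GAT1, a glycosyltransferase of the laminin-binding sugar on dystroglycan, fell from 17.3 to 3.15 TPM at 24 h and 7.82 TPM at 72 h (-2.15 and -1.05). RXYLT1 and POMT1, also enzymes of this sugar, fell by 1.06 and 0.93 at 24 h. At 72 h POMGNT1 changed by 0.46, POMT1 by 0.40 and POMK by -0.45.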
